A study of Arabidopsis thaliana with 6 samples.

Results

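Starch metabolism was followed through 5 gene symbols, APL3, APL4 and SBE2.2 for synthesis and PWD and DPE1 for breakdown, across every light and CO2 setting of the study. The probe annotation gave these symbols to 6 probe sets at 6 loci, out of 13286 genes with a probe set of their own, because PWD stands at both AT5G26570 and AT4G24450. The gene table lists ATGWD3 as a synonym of the first locus and ATGWD2 and GWD3 as synonyms of the second. By the ATGWD names, AT5G26570 is called PWD here and the other keeps its locus name. AT4G24450 is counted with the breakdown genes only through the shared symbol, and its part in starch breakdown was not tested. Each of the 6 genes had 1 probe set, and 5 of the 6 probe sets passed the filter on low signal (a mean signal of at least 26.7) and were tested. APL4 did not pass it and is given by its signals.

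The study asked how raised carbon dioxide alters the number of stomata. Its material was Arabidopsis thaliana Col-0, a wild-type laboratory accession, and RNA was taken from the middle of the rosette out to leaf 11. The plants, potted in compost and treated with an insecticide, were stratified for 3 days at 4 degrees C, kept at 21 degrees C on days of 10 h light and 14 h dark, and had reached growth stages 3.20 to 3.50. The 6 groups were low, medium and high light, each in ambient and in high CO2, with 1 ATH1 array per group and no replicate of any group. The sources used here give no light intensity, no CO2 concentration and no hour of harvest. For the high-light high-CO2 array the labels disagree, with high CO2 in its title and normal air in its atmosphere entry. Its title was followed. Calls that change under the atmosphere entry are marked at the gene, and several other values that move with it are given below.

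All 6 arrays had been scaled to one trimmed mean signal, and their median signals lay between 40.7 and 43.2. The labelled tissue was checked against defining markers. The leaf genes RCA, PRK, LHCB4.1 and LHCB4.2 had signals between 2173 and 5903 on all arrays, while the stem cell gene CLV3 of the shoot meristem lay between 1.4 and 8.6. PYK10, a glucosidase gene of roots and young seedlings, had signals of 63.7 and 31.3 in low light, 29.9 and 24.6 in medium light and 22.5 and 18.1 in high light, in ambient and high CO2 in that order; its part in the results below was not tested. Samples were whole tissue, so fewer cells of a type and less RNA per cell cannot be told apart.

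Leaves store part of the day's fixed carbon as starch in the chloroplast and break it down at night. ADP-glucose pyrophosphorylase, made of small and large (APL) subunits, supplies the glucose donor, starch synthases lengthen the chains, and branching enzymes such as SBE2.2 add side branches. At night glucan water dikinases, PWD among them, place phosphate groups on the granule surface so that amylases can reach it. DPE1 rearranges short glucan chains into glucose and longer chains. Transcripts of many breakdown genes in Arabidopsis leaves are known to cycle over the day.

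PWD gave the only call among the tested starch genes, being higher in high light than in low light. PWD encodes phosphoglucan water dikinase, which phosphorylates glucans that a first dikinase has already modified. In ambient CO2 its signal was 329.7 at low light, 287.1 at medium light and 707.9 at high light. In high CO2 these levels gave 430.5, 512.1 and 765.9. Both high-light arrays lay above all 4 others, and the signals of low and medium light overlapped. PWD rose 1.95-fold from low to high light (log2 0.97 ± 0.18 SE, limma adjusted p = 0.0169, n = 2 arrays per light level), with a 95% interval of 0.56 to 1.38. The ratio was 2.15 within ambient CO2 and 1.78 within high CO2. PWD was 1 of 5 tested starch probe sets past the threshold of 0.05 in this comparison, where 9.00% of all 13648 tested probe sets passed and 4.18% passed as higher in high light. At an unadjusted limma p under 0.05 there were 3 of the 5, APL3, PWD and DPE1, and 25.1% of all tested probe sets. By size of change PWD ranked 824th of the 13648.

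The PWD call depended on how the spread was estimated and on the low-light arrays. It was lost without an intensity trend in the spread (adjusted p = 0.0569) and without a CO2 term (0.0737), both at the same change, and without the low-light array in ambient CO2 (log2 1.01, 0.0714) or in high CO2 (0.92, 0.113). Between medium and high light PWD was 1.92-fold higher (log2 0.94 ± 0.18) and just missed the threshold (adjusted p = 0.0593). That step passed without the high-light high-CO2 array (1.19, adjusted p = 0.00177), without the medium-light high-CO2 array (1.23, 0.0157), with a robust prior (0.94, 0.0454) and under the atmosphere entry (1.25, 0.0251). From low to medium light the change of PWD was 0.03 ± 0.18, with a 95% interval of -0.39 to 0.44.

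**Figure D1:**
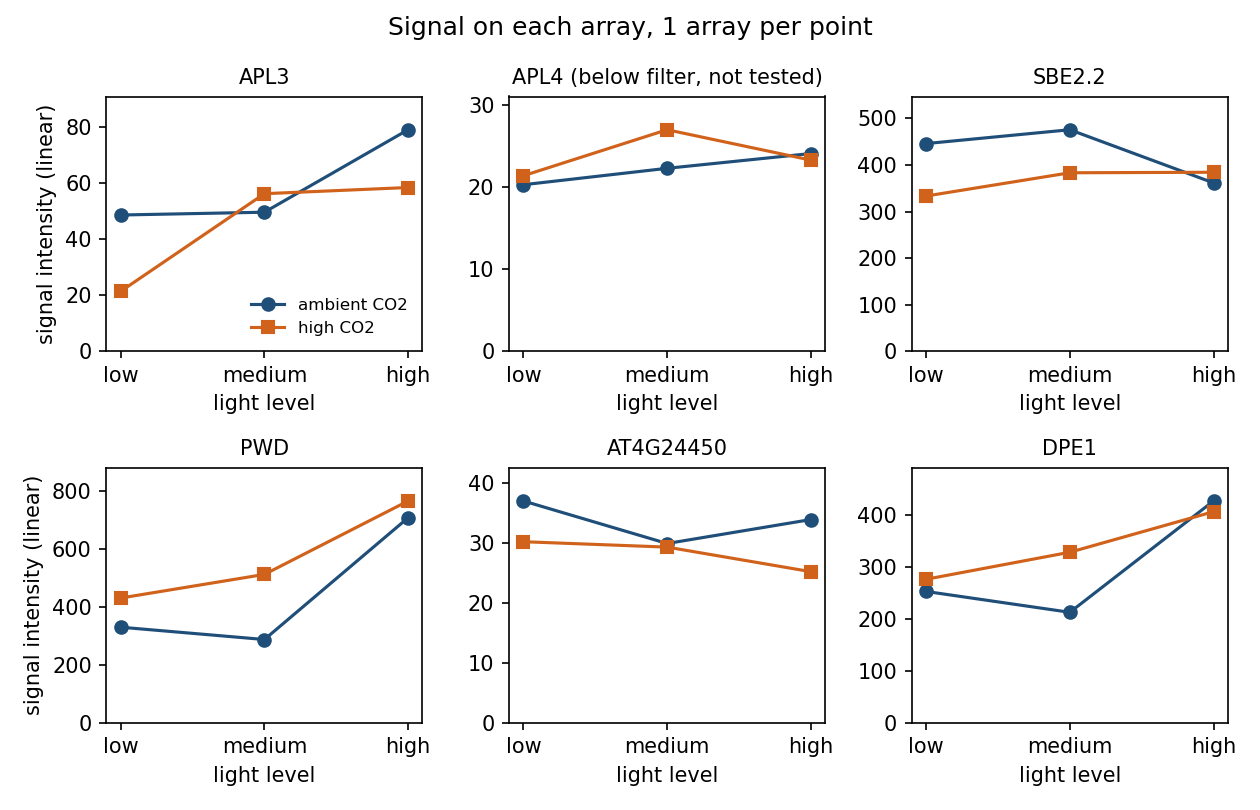
Signal intensity (linear, y axis from 0) of the 6 starch probe sets against light level, with circles for ambient CO2 and squares for high CO2, 1 array per point. PWD and DPE1 have their highest signals on both high-light arrays, and APL3 has its lowest, 21.4, in low light with high CO2.

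DPE1, the plastid disproportionating enzyme, had signals of 252.3 at low light, 212.2 at medium light and 426.4 at high light under ambient CO2. Under high CO2 they were 275.8, 327.8 and 405.8. As for PWD, both high-light arrays were above the 4 others and the lowest signal was that of medium light in ambient CO2. The high minus low difference of DPE1 was 0.66 ± 0.18 on the log2 scale, a ratio of 1.58, and did not pass (adjusted p = 0.0645; 95% interval 0.24 to 1.08). It passed without the high-light high-CO2 array (0.88, adjusted p = 0.0129), under the atmosphere entry (0.85, 0.0345) and without the medium-light array in ambient CO2 (0.66, 0.0221) or in high CO2 (0.66, 0.0233), and was 0.43 without the high-light ambient-CO2 array (0.286). High minus medium light gave 0.66 ± 0.18 (adjusted p = 0.136), which passed without the high-light high-CO2 array (0.88, 0.0195) or the medium-light high-CO2 array (0.96, 0.0364) and was 0.36 without the medium-light ambient-CO2 array. Medium minus low light gave 0.00 ± 0.18, with a 95% interval of -0.42 to 0.42.

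PWD and DPE1 ranked the 6 arrays alike. From the third place down both had medium light with high CO2, low light with high CO2, low light with ambient CO2 and then medium light with ambient CO2. They differed in which high-light array came first, high CO2 for PWD and ambient CO2 for DPE1. Those first places were not separated in either gene. The gap between the high-light arrays was 0.11 for PWD and 0.07 for DPE1 on the log2 scale. Both gaps were under the SD that the fit gives for a difference between single arrays (0.25 and 0.26). That SD comes from departures from the additive fit and not from replicate arrays. Sorting places like signals side by side, so a gap under this SD is no test that arrays are alike, here or for the genes below. For PWD the gap below the high-light arrays, 0.47, and that between low light in high and in ambient CO2, 0.38, exceeded this SD, while that between the lowest arrays, 0.20, did not. The gap from medium to low light in high CO2 (0.25) equalled that SD to the second decimal. For DPE1 the gap below the high-light arrays, 0.31, was the only one to exceed it.

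**Figure D2:**
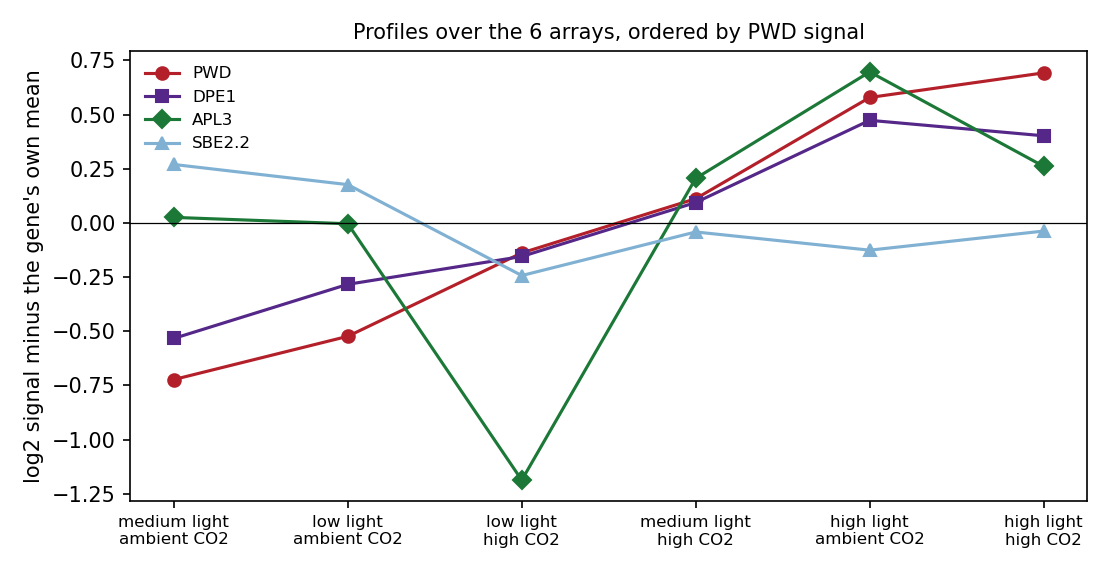
Log2 signal minus each gene's own mean over the 6 arrays (y axis) for PWD, DPE1, APL3 and SBE2.2, with arrays on the x axis ordered from the lowest to the highest PWD signal. PWD and DPE1 follow nearly the same order, APL3 drops in low light with high CO2, and SBE2.2 stays within 0.51 log2 units from lowest to highest.

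AT4G24450, the other locus annotated as PWD, had low signals on all arrays. From low through medium to high light they were 37, 29.9 and 33.9 under ambient CO2, and 30.2, 29.3 and 25.2 under high CO2. The last of these lies under the filter cutoff of 26.7. With its arrays sorted by signal, no neighbours differed by more than the SD of a difference between arrays, 0.36. The highest and lowest arrays were 0.55 log2 units apart. High minus low light gave -0.19 ± 0.26 (adjusted p = 0.696; 95% interval -0.79 to 0.40). The 2 loci that share the symbol PWD thus had light differences of opposite sign, and the contrast between them was not tested.

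APL3, a large subunit of ADP-glucose pyrophosphorylase whose transcript is known to rise with sugar supply in Arabidopsis, had signals of 48.6 at low light, 49.6 at medium light and 79 at high light under ambient CO2. Under high CO2 it had 21.4, 56.2 and 58.4. The low-light high-CO2 array stood 1.18 log2 units below the next one, beyond the SD of 0.44 for a difference between arrays, and its signal was under the filter cutoff, so the size of that gap is not firm. No other neighbours in its order by signal differed beyond that SD. High minus low light was 2.11-fold (log2 1.07 ± 0.31, 95% interval 0.35 to 1.80) and did not pass (adjusted p = 0.0765). It was 0.55 without the low-light high-CO2 array (adjusted p = 0.469) and 1.60 without the low-light ambient-CO2 array (0.0362). It also passed without the medium-light array in ambient CO2 (adjusted p = 0.0369) or in high CO2 (0.0372), at the same 1.07. The step from low to medium light was 0.03 in ambient CO2 and 1.39 in high CO2, and that from medium to high light was 0.67 and 0.06.

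APL4 encodes a second large subunit of this kind. From low through medium to high light its signals were 20.3, 22.3 and 24.1 under ambient CO2, and 21.4, 27 and 23.3 under high CO2. The highest of them exceeded the lowest by 0.41 log2 units. Low MAS5 signals are noisy on this scale, and detection calls were not used. Without the filter its high minus low difference was 0.19 ± 0.34 (adjusted p = 0.846) and its CO2 difference 0.10 ± 0.27 (adjusted p = 0.961).

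SBE2.2, a branching enzyme, had signals of 446.1 at low light, 475.8 at medium light and 361.7 at high light under ambient CO2. Under high CO2 it had 333.5, 383.4 and 384.5. With the 6 arrays sorted by signal, no neighbours differed beyond the SD of a difference between arrays, 0.22, while the highest and lowest were 0.51 log2 units apart. High minus low light was -0.05 ± 0.16 (adjusted p = 0.887), with a 95% interval of -0.41 to 0.31, so a change of 2-fold in either direction lay outside it. Within ambient CO2 the high-light signal was lower than the low-light one by 0.30 log2 units, and within high CO2 it was higher by 0.21. The fitted value turned to 0.18 without the high-light ambient-CO2 array and to 0.11 without the low-light ambient-CO2 array.

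Between ambient and high CO2 none of the 5 tested starch probe sets passed, where 0.0586% of all tested probe sets did. At an unadjusted limma p under 0.05 there was 1, PWD, against 8.63% of all tested probe sets. PWD was higher in high CO2 at 3 of 3 light levels, with the CO2 level taken from the titles. The differences were 0.38, 0.83 and 0.11 log2 units in low, medium and high light. The fitted value was 0.44 ± 0.14 (limma adjusted p = 0.432, 95% interval 0.11 to 0.78). The 0.11 was under the SD of 0.25 for a difference between arrays. In every gene the high-light CO2 difference rests on the array whose labels disagree. Under its atmosphere entry both high-light arrays are ambient, and the fitted CO2 difference of PWD was 0.61 (adjusted p = 0.484). DPE1 differed by 0.13, 0.63 and -0.07 (fitted 0.23 ± 0.15, adjusted p = 0.728). In PWD and DPE1 the CO2 difference was greatest in medium light, where ambient CO2 gave each its lowest signal of the 6 arrays. AT4G24450, the other probe set annotated as PWD, had its smallest CO2 difference there. Without either medium-light array the fitted CO2 difference was 0.25 for PWD and 0.03 for DPE1, and without either high-light array 0.61 and 0.38.

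APL3 was lower in high CO2 by 1.18 in low light and 0.44 in high light, and higher by 0.18 in medium light (fitted -0.48 ± 0.26, adjusted p = 0.662). Without either low-light array its fitted value was -0.13, and without either medium-light array -0.81. SBE2.2 was lower by 0.42 and 0.31 in low and medium light and higher by 0.09 in high light (fitted -0.21 ± 0.13, adjusted p = 0.697; 95% interval -0.51 to 0.08). It was -0.37 without either high-light array. AT4G24450 was lower by 0.29, 0.03 and 0.43 (fitted -0.25 ± 0.21, adjusted p = 0.797). The median fitted CO2 difference over the 5 was -0.21, beside 0.01 over all tested probe sets.

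**Figure D3:**
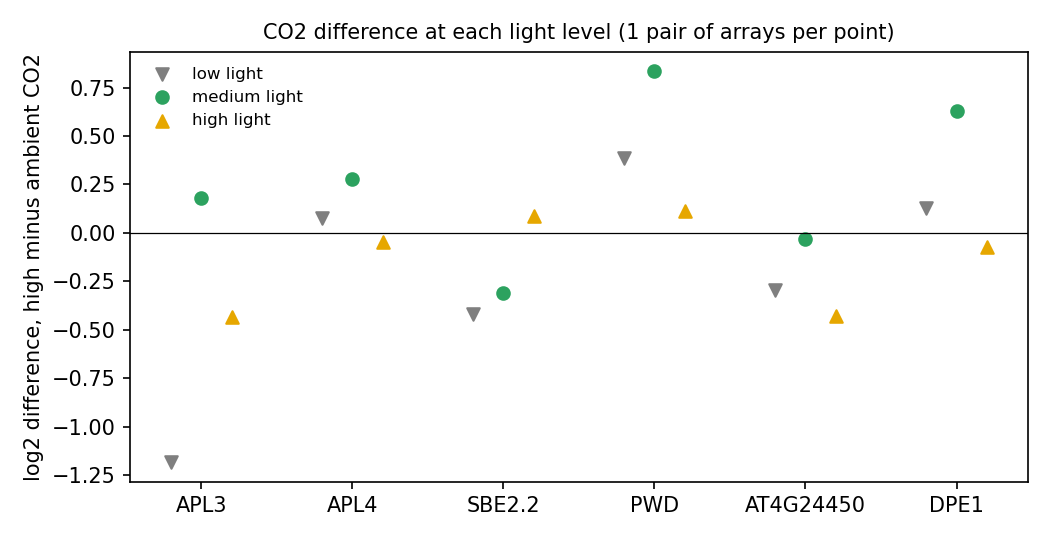
Log2 difference between high and ambient CO2 (y axis) at each light level for the 6 starch probe sets (x axis), 1 pair of arrays per point. The medium-light points of PWD (0.83) and DPE1 (0.63) are the highest, and the low-light point of APL3 (-1.18) is the lowest. The high-light points follow the title of the array whose CO2 labels disagree.

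Whether the CO2 difference changed along the light order was tested with a product term, in log2 units per step of light. None of the 5 passed, and 0% of all tested probe sets did; at an unadjusted p under 0.05 there were 0 of the 5 and 1.66% of all. The values were 0.37 ± 0.32 for APL3, 0.25 ± 0.19 for SBE2.2, -0.14 ± 0.30 for PWD, -0.10 ± 0.26 for DPE1 and -0.07 ± 0.27 for AT4G24450. This term follows a straight trend from low to high light and is not made to detect a difference that stands out at medium light alone. Under the atmosphere entry the product term was 1.13 for APL3 and -0.40 for PWD, the high minus low difference 0.82 for APL3 (adjusted p = 0.256) and -0.23 for SBE2.2, and the CO2 difference 0.38 for DPE1 and -0.37 for SBE2.2, and none of these passed.

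Over the light steps, none of the 5 passed between low and medium light, where 4.54% of all tested probe sets did; unadjusted, 0 of the 5 and 22.1% of all had p under 0.05. None passed between medium and high light, where 0.953% of all did; unadjusted, PWD and DPE1 were under 0.05, with 16.8% of all. APL3 had 0.71 ± 0.31 for medium minus low (adjusted p = 0.234) and 0.36 ± 0.31 for high minus medium (0.613), SBE2.2 0.15 ± 0.16 and -0.20 ± 0.16, and AT4G24450 -0.18 ± 0.26 and -0.02 ± 0.26. The median over the 5 was 0.66 for high minus low light, 0.03 for medium minus low and 0.36 for high minus medium, beside 0.03, 0.02 and -0.02 over all tested probe sets. The 3 light comparisons share arrays and are not independent of each other.

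**Figure D4:**
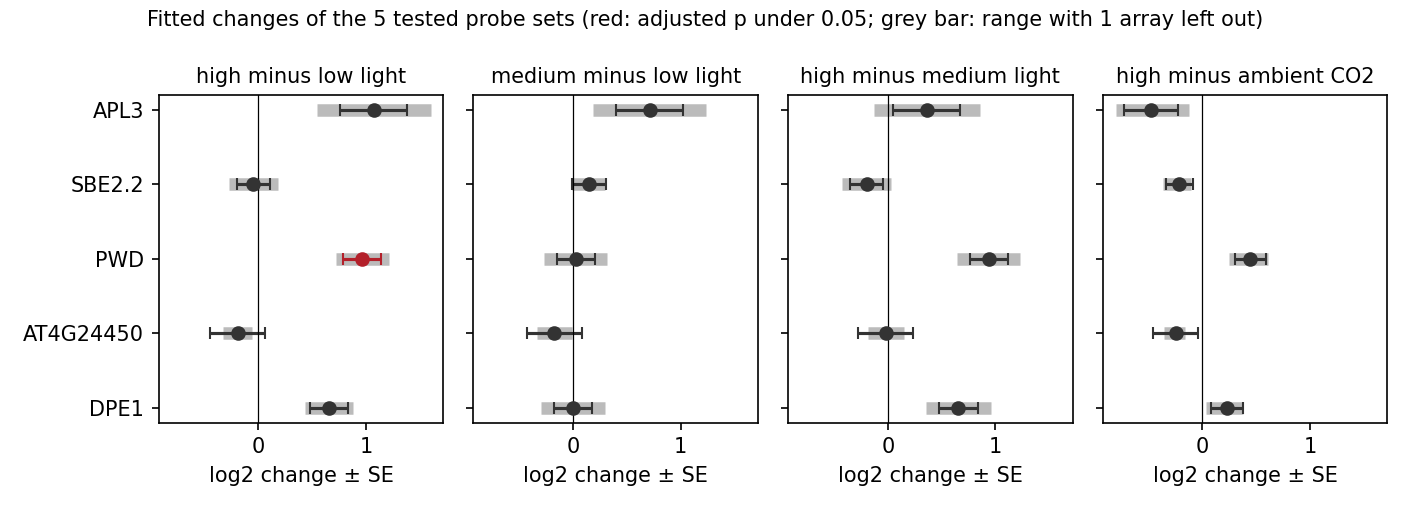
Fitted log2 changes (x axis, points with SE bars) of the 5 tested starch probe sets (rows) in the 3 light comparisons and the CO2 comparison, with grey bars for the range when 1 array is left out. Only PWD in high minus low light is drawn in red, for an adjusted p under 0.05; the medium minus low values of PWD and DPE1 are at 0.03 and 0.00.

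**Figure D5:**
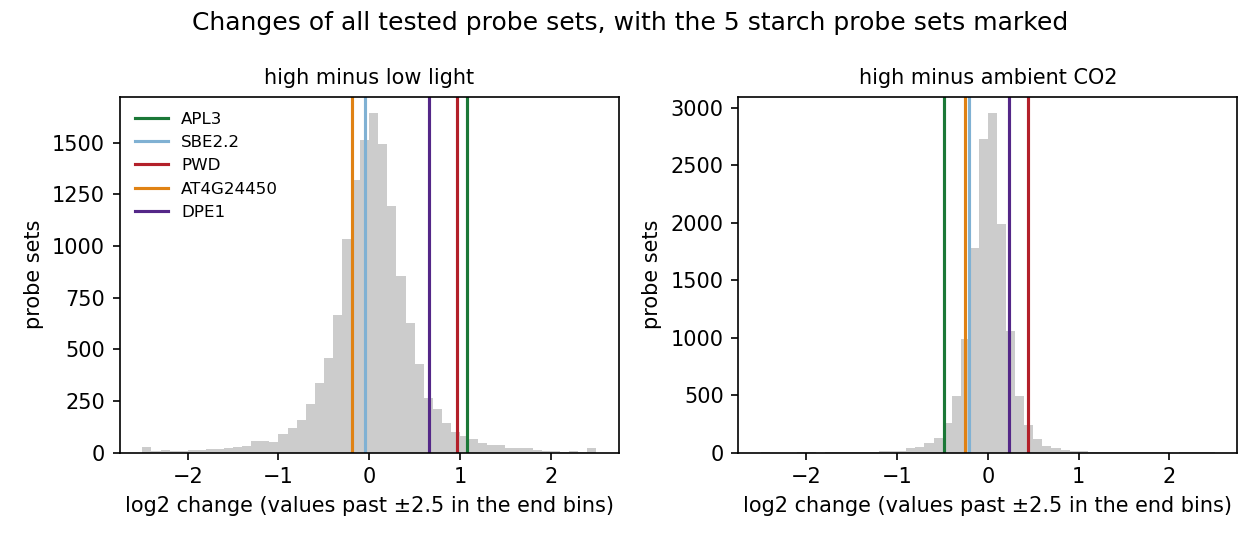
Histograms of the log2 changes of all 13648 tested probe sets (y axis, number of probe sets) for high minus low light and for high minus ambient CO2, with vertical lines at the 5 starch probe sets. APL3 (1.07) and PWD (0.97) lie in the right flank for light, and for CO2 PWD (0.44) and APL3 (-0.48) lie in opposite flanks.

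The rest of the pathway could be described only in small part. Of 22 starch synthesis genes and 28 starch breakdown genes listed, 6 and 5 had a probe set of their own. The match of listed symbols to loci left out 3 and 1 of these, and 3 and 4 were analysed. The only one of them beyond the genes above was AMY1, an alpha-amylase. AMY1 is counted with the breakdown genes through the list, and its part in leaf starch breakdown was not tested. From low through medium to high light AMY1 had signals of 24, 57.7 and 39.8 under ambient CO2, and 32.1, 52.4 and 34.9 under high CO2. Its highest signals were thus in medium light at both CO2 levels. Its low-light ambient-CO2 signal is under the filter cutoff, so the size of its differences from low light is not firm. Medium minus low light was 0.99 ± 0.25 (adjusted p = 0.0679) and passed without the high-light array in ambient CO2 (0.0229) or in high CO2 (0.0221), while high minus low light was 0.43 ± 0.25 (adjusted p = 0.344).

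Of 24 genes of sucrose metabolism and sugar transport, 6 had a probe set of their own, and 4 were analysed after the match of symbols. In high minus low light 1 of these 4 rose and 0 fell. Of all tested probe sets, 9.00% passed in either direction and 4.18% rose. The one that rose was SWEET11, a sucrose exporter that acts in phloem loading. Its signals were 108.3 at low light, 204.5 at medium light and 221 at high light under ambient CO2. Under high CO2 they were 191.1, 258.1 and 299.5. It was 1.79-fold higher in high light (log2 0.84 ± 0.16, adjusted p = 0.0205), a call lost without an intensity trend (0.0562), without a CO2 term (0.126) and without the low-light array in ambient CO2 (0.62, 0.192) or in high CO2 (1.05, 0.0501). Its CO2 difference was 0.53 ± 0.13 (adjusted p = 0.314).

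The tonoplast sugar transporter gene TMT1 had 0.55 ± 0.15 for high minus low light (adjusted p = 0.0621), which was 0.70 and passed without the high-light ambient-CO2 array (0.0448). Its relative TMT2 had 0.27 ± 0.21, and this ranged from -0.12 without the high-light ambient-CO2 array to 0.67 without the high-light high-CO2 array, where it passed (adjusted p = 0.0405); its CO2 difference was 0.15 ± 0.17. The sucrose phosphate synthase gene ATSPS4F had 0.64 ± 0.39, and 1.28 and 0.01 without the low-light array in high and in ambient CO2. Its signal on the latter array, 19.8, is under the filter cutoff. No gene of a list of 13 on sugar status could be analysed.

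Genes with the most similar profile were taken by Pearson's r of log2 signal over the 6 arrays, among 1422 other tested single-gene probe sets that spanned at least 1 log2 unit. With 6 points in 3 light levels such values are high for many probe sets, and r exceeded 0.9 for 74 of the 1422 with PWD, 63 with DPE1 and 57 with APL3. Nearest to PWD were CHL (AT3G47860), a chloroplast lipocalin gene (r = 0.994), AT3G29075 (0.990) and AT4G27130 (0.987). From low through medium to high light CHL had 466.3, 402.9 and 756.3 under ambient CO2, and 569.3, 635.6 and 858 under high CO2, which is the array order of PWD. Nearest to DPE1 were AT4G33490 (r = 0.996), AT5G52760 (0.993) and AT1G68500 (0.989), and nearest to APL3 were AT3G57880 (0.997), AT3G11600 (0.994) and AT2G43800 (0.994).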

How the data were processed

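The extracted molecule was total RNA and the label was biotin, and the 6 ATH1 arrays held 22810 probe sets. The deposited columns hold signal intensity on a linear scale. Per the submitters' processing notes they come from MAS5, whose version the sources used here do not give; the arrays share 1 value of the 2% trimmed mean. Signals were floored at 0.1 and taken to log2. After removal of 64 control probe sets, the upper 60% by mean log2 signal, 13648 of 22746, were tested.

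CO2 and light entered as additive terms in a fit with limma 3.58.1 (lmFit, eBayes with intensity trend) under R 4.3.3, with 2 residual degrees of freedom and a mean prior of 5.76. With 1 array left out, this fit kept 1 residual degree of freedom. A second model held CO2, a light score and their product. P-values were adjusted by Benjamini-Hochberg over all tested probe sets. The labels name no separate plantings, so the p-values cover only these arrays, whose number limits the precision. With 1 array per group, the spread behind them is the departure from the fitted model, combined with the prior. It is not a spread between replicate arrays. The fit was tested on simulated data. Figures were drawn in Python 3.11.15.

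Of 14016 annotated probe sets, 13513 had 1 gene and 503 several, and 13436 matched TAIR10.1. List genes were kept where the listed symbol is a symbol or synonym of the locus, with or without the prefix AT; 6 with a probe set were not kept. From each list up to 4 genes with the smallest p for high minus low light and up to 2 for CO2 are named. Values of named genes in further comparisons were added after they were seen. Members and lists were chosen with earlier results of these data known.

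The alternatives changed the normalization (quantile, or equal medians), the filter (none, or the top 40%), the log scale (12.7, the 25th percentile, added to each signal), the prior (no trend, or robust), the CO2 and light terms, the CO2 label (the atmosphere entry, 4 ambient and 2 high) and the arrays used (each left out, or both of high light).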

Additional observations from a re-analysis of the deposited data

Results flagged for a closer look

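With 1 array per group, the following differences had opposite signs in 2 settings of the other factor. None of these contrasts between settings was tested, and the high-light high-CO2 array follows its title. The step from low to medium light was negative in ambient CO2 and positive in high CO2 for PWD (-0.20 and 0.25 on the log2 scale, 0.45 apart) and for DPE1 (-0.25 and 0.25, 0.50 apart). The CO2 difference of DPE1 was 0.63 in medium light and -0.07 in high light, 0.70 apart. That of APL3 was 0.18 in medium light and -1.18 in low light, 1.36 apart, and rests on the signal of 21.4 under the filter cutoff. For SBE2.2 the CO2 difference was 0.09 in high light and -0.42 in low light, 0.51 apart, which is the same contrast as its high minus low difference of 0.21 in high CO2 and -0.30 in ambient CO2. Its high minus medium difference was 0.00 in high CO2 and -0.40 in ambient CO2, 0.40 apart. That of AT4G24450 was 0.18 in ambient CO2 and -0.22 in high CO2, 0.40 apart.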

How the results depend on the processing

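Of the changes of named genes recomputed under the alternatives, 452 kept their sign and their side of the threshold, 22 newly passed, 8 no longer passed and 24 changed sign. The alternatives of the filter, the prior, the CO2 term and the light score leave the change itself as it was. The sign could not differ under them, so the 452 is not a measure of stability. In high minus low light the number of starch probe sets past the threshold, 1, became 0 without an intensity trend and without a CO2 term, 2 under the atmosphere entry, and 0 to 3 with 1 array left out. Without the low-light ambient-CO2 array it was 1 again, then APL3 and not PWD. In high minus medium light the number, 0, became 1 with a robust prior and under the atmosphere entry, and 0 to 2 with 1 array left out. It was 0 in the other comparisons under all alternatives run. The cause of these differences was not tested.

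Changes of sign were those of values that had not passed. For medium minus low light PWD was -0.019 with equal medians, and DPE1 was 0.033 with quantile normalization and 0.0012 with the added percentile. The product term of AT4G24450 was 0.11 under the atmosphere entry. With 1 array left out, SBE2.2 ranged from -0.28 to 0.18 for high minus low, from -0.0069 to 0.30 for medium minus low and from -0.42 to 0.031 for high minus medium light. Medium minus low light ranged from -0.27 to 0.32 for PWD and from -0.30 to 0.30 for DPE1, and high minus medium light from -0.13 to 0.86 for APL3 and from -0.18 to 0.15 for AT4G24450. The product term ranged from -0.30 to 1.04 for APL3, from -0.89 to 0.62 for PWD, from -0.31 to 0.18 for AT4G24450 and from -0.73 to 0.53 for DPE1. TMT2 ranged from -0.12 to 0.67 for high minus low light and from -0.0091 to 0.42 for CO2.

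The count over all tested probe sets was 1228 for high minus low light, 737 without the filter, 726 without the trend, 806 without a CO2 term and 301 to 1636 with 1 array left out. For medium minus low light it was 619, against 119, 17, 343 and 14 to 1630 in the same order, with 368 under the atmosphere entry and 1683 without both high-light arrays. For high minus medium light it was 130, against 9, 1, 0 and 4 to 852, with 232 under the atmosphere entry. For CO2 it was 8, against 5 with quantile normalization and with the top 40%, 0 without the filter, without the trend, under the atmosphere entry and with light as a score, 153 without both high-light arrays and 8 to 144 with 1 array left out. For the product term it was 0, and 0 to 30 with 1 array left out.

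No paired analysis was possible because all arrays carry replicate number 1, so there is no replicate block to fit. The additive model already compares CO2 levels within light levels and light levels within CO2 levels, and without the CO2 term the PWD call was lost. Signals near the filter cutoff of 26.7, those of APL4, AT4G24450, APL3 in low light with high CO2, and AMY1 and ATSPS4F in low light with ambient CO2, limit what can be said of their sizes. The same holds for AT5G52760 in low light and in medium light with ambient CO2.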
